A study of Homo sapiens with 8 samples.

Results

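The genes described here are 33 genes of glucose uptake, glycolysis, pyruvate use and the pentose phosphate pathway, taken as a named list and followed over 8 microarrays of MCF10A cells, a non-tumorigenic human mammary epithelial line. A probe on the array was assigned to a gene when its RefSeq accession belonged to that gene, and 32 of the 33 genes were found among the 20296 genes so named. ALDOA was not matched and has no value here. SLC2A3, a glucose transporter, was not well above background on any array, so 31 members were measured, of which 30 were well above background on all 8 arrays.

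The study compared MCF10A cells with wild-type p53 (p53+/+) and cells lacking p53 (p53−/−) before and after adriamycin (ADR, doxorubicin), a drug that breaks DNA, to find genes that p53 regulates. Treated cells received 0.5 µg/ml of the drug over 2 h according to the labels and were collected 12, 24 or 48 h later, and untreated cells were collected at 0 h. The study's methods give another dose for these arrays, so the dose is uncertain. Each genotype and time has 1 array, with no replicate, and the sources used here give neither the way p53 was removed nor the number of clones behind the p53−/− line.

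Glycolysis turns glucose into pyruvate, which is reduced to lactate or enters mitochondria through the pyruvate dehydrogenase complex, and the pentose phosphate pathway branches off early to make ribose and reducing power. Hexokinases trap glucose in the cell, phosphofructokinase sets the pace of the upper steps, and the pyruvate dehydrogenase kinases (PDKs) switch off entry into mitochondria. p53 is known to act on this network, best through TIGAR, a phosphatase that lowers fructose-2,6-bisphosphate, and many of the enzymes are also known targets of the hypoxia factor HIF-1.

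A level below is the log2 of the processed fluorescence signal of a gene's brightest probe relative to the 75th percentile of that array, and a difference between levels of the same gene is a log2 fold change. The array labelled p53+/+ 0 h stood apart from the other p53+/+ arrays. CDH1, the epithelial cadherin, had levels of −3.13, 1.42, 2.00 and 2.10 in p53+/+ (0, 12, 24 and 48 h) and −3.55, −3.30, −2.19 and −0.94 in p53−/−. DCN, the matrix proteoglycan decorin, had levels of 5.75, 2.09, 2.28 and 2.37 in p53+/+ (0, 12, 24 and 48 h) and 5.85, 5.70, 5.99 and 6.07 in p53−/−. In both genes the array labelled p53+/+ 0 h lay near the p53−/− 0 h array and far from the 3 treated p53+/+ arrays. CDKN1A, the p53 target encoding p21, had levels of −1.14, 2.54, 2.63 and 2.70 in p53+/+ (0, 12, 24 and 48 h) and −2.97, −0.96, −0.64 and −0.48 in p53−/−. MDM2, another p53 target, had levels of −1.66, 1.29, 1.49 and 1.76 in p53+/+ (0, 12, 24 and 48 h) and −1.33, −2.04, −1.33 and −1.57 in p53−/−. Both p53 targets were highest on the 3 treated p53+/+ arrays. Between the 0 h arrays CDKN1A was 1.83 higher on the one labelled p53+/+ (technical SD 0.076) and the p53 target TIGAR was 1.24 higher, which runs with the labels, while MDM2 differed by −0.33. With 1 untreated array per genotype, an effect of treatment and a mistaken label cannot be told apart. For this reason changes in p53+/+ cells are given against the array labelled p53+/+ 0 h and again against the p53−/− 0 h array. The second baseline also carries any untreated difference between the genotypes.

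The treated arrays also differed in markers of cell type. Of 9 mammary epithelial markers, 6 were called higher in treated p53+/+ cells by limma and none lower, where 20.9% of all genes were called in either direction. The log2 of their summed level was 8.44 to 9.03 on the treated p53+/+ arrays, 7.79 on the array labelled p53+/+ 0 h and 7.48 to 7.83 on the p53−/− arrays. Of 5 fibroblast markers 3 were measured, all called lower in treated p53+/+ cells, and their summed level was 2.11 to 2.39 there, 5.76 on the array labelled p53+/+ 0 h and 5.70 to 6.07 on the p53−/− arrays. COL1A2 and COL3A1, which define fibroblasts, were not well above background on any array, and DCN made up nearly all of that sum. On each treated p53+/+ array only 1 fibroblast marker was well above background. The other measured ones entered the fit only through arrays outside that group, so their calls rest on dim signals and the shift rests largely on DCN. Markers of endothelium summed to −2.48 to −2.13 on treated p53+/+ arrays and −1.48 to −0.98 on treated p53−/− arrays, and those of blood to −3.32 to −2.69 and −3.10 to −2.84. The blood sums thus overlapped. Of the 4 endothelial markers 1 was called lower, or 25.0% against 20.9% of all genes. Only 1 to 2 of them were well above background on each treated p53+/+ array, so their sums there rest on dim signals. The epithelial and fibroblast shifts, and the difference in endothelial sums, run with genotype among the treated arrays and with treatment in p53+/+ cells. Their part in the members' values was not tested. Between the 0 h arrays the sums were close, at 5.76 and 5.86 for fibroblast and −1.40 and −1.42 for endothelial markers. In bulk RNA, fewer cells of a type and less RNA per cell cannot be told apart.

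The promoters of 4 members are shown to set their letters beside the comparison of treated genotypes: TKT and SLC16A3 (higher in treated p53+/+ cells), ENO2 (lower), and TALDO1, which works beside TKT. PFKFB2, also called higher, had no window among the promoters used and is not shown. Each is the 250 bases before the RefSeq transcription start in GRCh38.p14, written 5′ to 3′ in the direction of the gene, with every copy of the HIF-1 core letters ACGTG or GCGTG, on either strand, in capitals. SLC16A3 has 5 annotated starts, and the window with the most ACGTG copies is shown.
TKT, chr3:53256023-53256272, minus strand: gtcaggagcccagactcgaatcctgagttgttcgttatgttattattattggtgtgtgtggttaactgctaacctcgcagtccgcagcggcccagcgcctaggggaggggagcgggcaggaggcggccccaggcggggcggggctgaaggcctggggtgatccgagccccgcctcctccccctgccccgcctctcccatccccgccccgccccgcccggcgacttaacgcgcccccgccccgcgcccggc
TALDO1, chr11:747214-747463, plus strand: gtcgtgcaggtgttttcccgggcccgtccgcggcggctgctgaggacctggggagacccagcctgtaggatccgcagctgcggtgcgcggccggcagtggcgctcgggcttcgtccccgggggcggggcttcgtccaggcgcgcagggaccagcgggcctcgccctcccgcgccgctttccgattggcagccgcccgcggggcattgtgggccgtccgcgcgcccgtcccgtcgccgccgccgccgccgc
SLC16A3, chr17:82228792-82229041, plus strand: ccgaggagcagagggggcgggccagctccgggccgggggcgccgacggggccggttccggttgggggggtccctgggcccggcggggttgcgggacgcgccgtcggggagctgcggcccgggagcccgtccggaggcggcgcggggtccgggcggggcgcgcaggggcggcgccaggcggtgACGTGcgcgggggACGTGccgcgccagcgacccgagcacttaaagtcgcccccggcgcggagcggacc
ENO2, chr12:6914330-6914579, plus strand: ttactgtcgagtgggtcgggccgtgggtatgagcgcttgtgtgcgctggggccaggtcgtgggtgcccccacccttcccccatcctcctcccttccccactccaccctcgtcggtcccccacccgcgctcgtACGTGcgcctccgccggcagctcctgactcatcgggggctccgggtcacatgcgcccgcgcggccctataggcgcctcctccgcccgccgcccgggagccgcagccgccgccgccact
The letters occurred at positions −68 and −55 in SLC16A3 and at −118 in ENO2, counted from the start, and nowhere in the TKT and TALDO1 windows. In the 58 windows of 30 members, ACGTG was present in 36.2%, against 18.5% of all 35116 windows. GCGTG was present in 32.8% against 32.2%. The E-box CACGTG, which contains ACGTG, was present in 13.8% against 6.34%. Several windows belong to one gene, and these shares describe letters, not binding.

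Among the 31 measured members, 24 stayed within 2-fold of 0 h at every time in both genotypes, as did 47.7% of all measured genes. In all 10 differences formed, which also include those between the genotypes, 18 members stayed within 2-fold, as did 41.1% of all genes. These shares were not tested against each other. The median over members of the mean log2 change was −0.26 in p53+/+ cells, against 0.06 over all 15811 measured genes, and 0.04 in p53−/− cells, against 0.03. Against the p53−/− 0 h array the p53+/+ median was −0.0055. In p53+/+ cells 1 member (PFKFB2) was at least 2-fold above the array labelled p53+/+ 0 h at 2 or more of the 3 times, a size reached by 14.7% of all genes. Down by that size were 5 members (HK2, ENO2, PDK1, PDK4 and TALDO1), against 11.5% of all genes. In p53−/− cells no member was up by that size and 1 (PDK4) was down, against 8.82% and 4.8% of all genes. With 1 array per condition these changes have no test. Repeated spots of one probe gave a technical SD of such a difference of 0.029 to 0.171 across members, which covers spot noise within an array only.

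**Figure D1:**
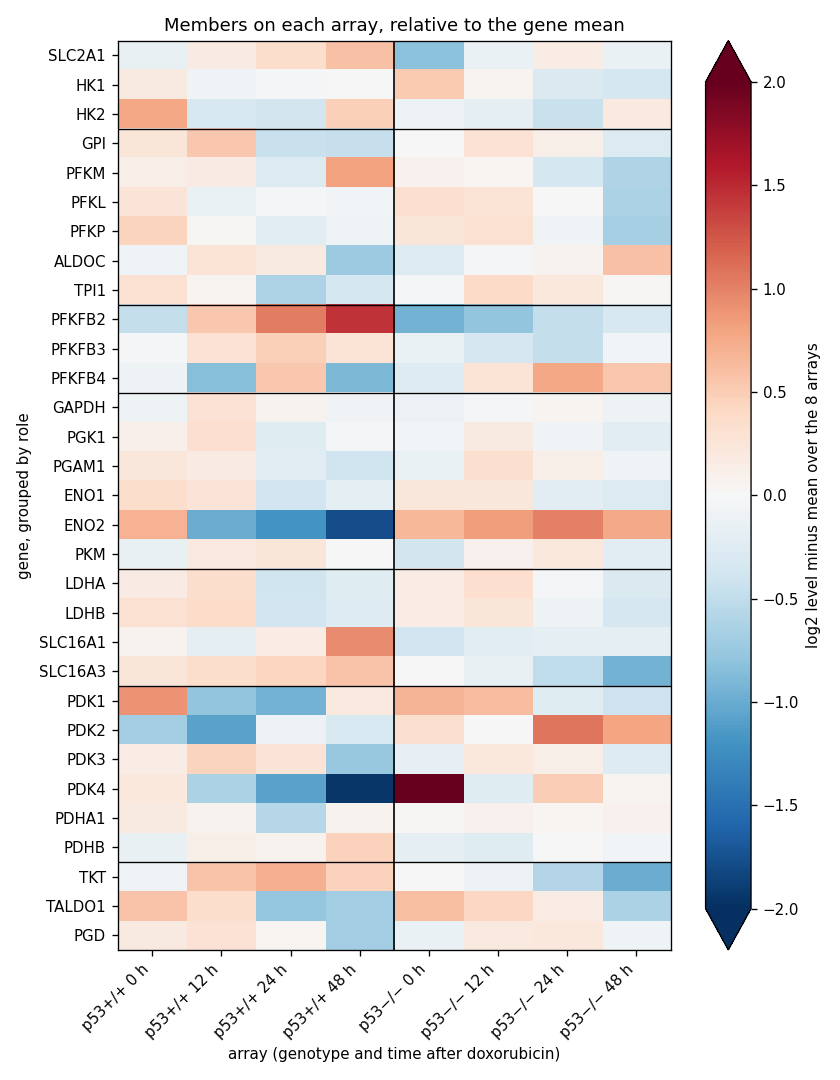
Level of the 31 measured members (rows, grouped by role, separated by lines) on the 8 arrays (columns), as the log2 level minus the gene's mean over the 8 arrays, with red above and blue below that mean and the scale ending at −2 and 2. Most rows are pale, and PFKFB2, PFKFB4, ENO2, PDK1, PDK2, PDK4 and TKT are among the rows of stronger colour.

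Between the treated genotypes, 4 of 31 members passed limma's moderated test over the 6 treated arrays, with Benjamini-Hochberg adjustment over all probes. In the same fit 18% of 28947 probes passed (5201 probes, 58.8% of them higher in p53+/+ cells), and 20.9% of all genes by their brightest probe, so the members' share of 12.9% was below both and is no result about the members as a group. PFKFB2, SLC16A3 and TKT were higher in treated p53+/+ cells and ENO2 was lower. By size, 2 members (PFKFB2 and TKT) were at least 2-fold higher at 2 or more times, against 11.7% of all genes. Another 4 (PFKFB4, ENO2, PDK2 and PDK4) were at least 2-fold lower, against 11.4%. The median difference over members was −0.02, against 0.05 over all genes. The share of probes called higher moved with the scaling, to 48.3% after quantile normalization, 45.7% after median scaling and 14.5% without scaling. Each genotype occupied its own column of array positions on the slide, and these cannot be told apart from genotype.

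**Figure D2:**
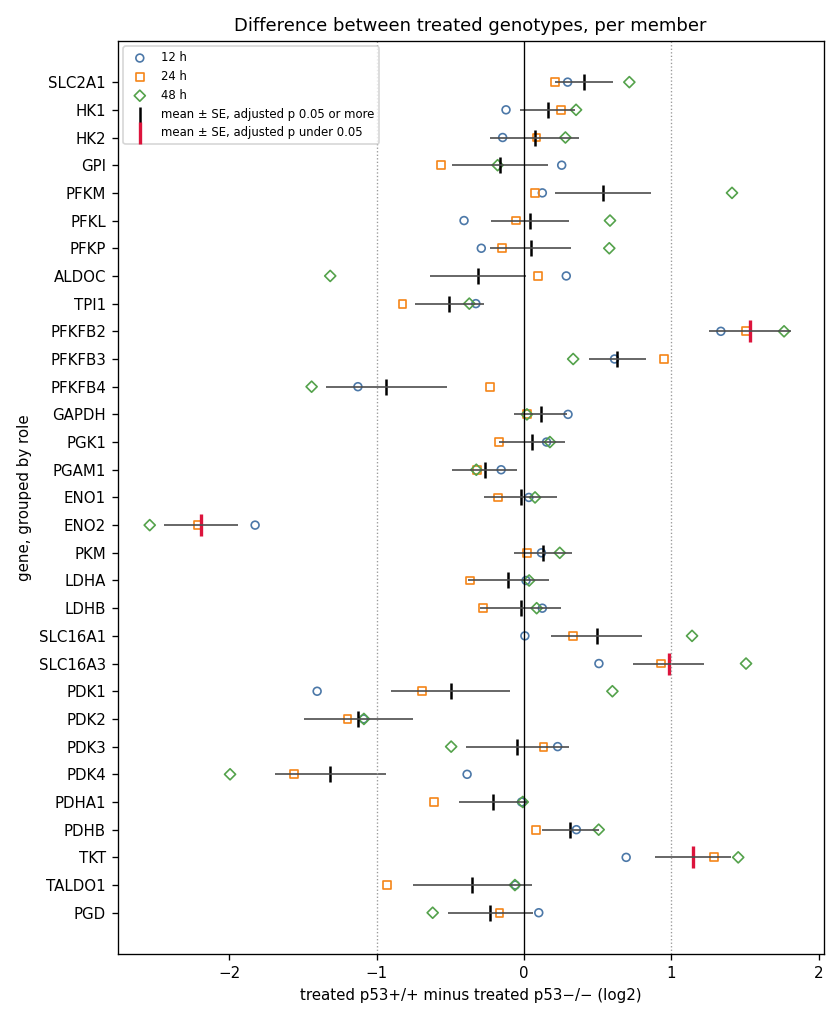
Treated p53+/+ minus treated p53−/− (log2, horizontal axis) for the 31 measured members, with a symbol for each time and the mean ± SE of limma's fit over the 3 times as a bar. Red bars mark the 4 members with an adjusted p under 0.05 (PFKFB2, ENO2, SLC16A3 and TKT), and dotted lines mark 2-fold. ENO2 was not well above background on the treated p53+/+ arrays, so its points and bar rest on dim signals there.

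Genes of glucose uptake and trapping varied little between treated genotypes. SLC2A1, which encodes the widespread glucose transporter GLUT1, had levels of 1.88, 2.19, 2.38 and 2.61 in p53+/+ (0, 12, 24 and 48 h) and 1.20, 1.89, 2.17 and 1.89 in p53−/−. It was lowest on the p53−/− 0 h array and highest on the p53+/+ 48 h array, and its treated difference of 0.41 (SE 0.20) did not pass the test (limma adjusted p = 0.202). HK1, the housekeeping hexokinase, had a treated difference of 0.16 (SE 0.19). HK2, the inducible hexokinase, had levels of 0.21, −0.89, −0.93 and −0.09 in p53+/+ (0, 12, 24 and 48 h) and −0.68, −0.74, −1.02 and −0.37 in p53−/−. HK2 was highest on the array labelled p53+/+ 0 h and differed from it by −1.10, −1.14 and −0.30 at 12, 24 and 48 h, whereas p53−/− cells differed from their 0 h array by −0.07, −0.34 and 0.30. Against the p53−/− 0 h array the mean change of HK2 in p53+/+ cells was 0.04. Its decrease thus appeared only against the array labelled p53+/+ 0 h, where HK2 was 0.89 above the p53−/− 0 h array. A fall from a higher untreated level and a mistaken label cannot be told apart.

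In the upper steps, no member passed the test. GPI, PFKL, PFKP, PFKM, ALDOC and TPI1 had treated differences from −0.51 (TPI1, triose phosphate isomerase) to 0.54 (PFKM, muscle-type phosphofructokinase). PFKM had levels of 2.85, 2.88, 2.44 and 3.53 in p53+/+ (0, 12, 24 and 48 h) and 2.80, 2.76, 2.36 and 2.12 in p53−/−. Its genotypes lay close together at 12 and 24 h and 1.41 apart at 48 h. TPI1 had levels of 6.05, 5.81, 5.13 and 5.40 in p53+/+ (0, 12, 24 and 48 h) and 5.72, 6.13, 5.95 and 5.77 in p53−/−, and was lower in p53+/+ cells at each treated time with an adjusted p of 0.184 by limma.

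The bifunctional enzymes that make and break fructose-2,6-bisphosphate, the activator of phosphofructokinase, included the member with the largest increase. PFKFB2 had levels of −0.62, 0.39, 0.88 and 1.29 in p53+/+ (0, 12, 24 and 48 h) and −1.10, −0.94, −0.63 and −0.47 in p53−/−. The 3 treated p53+/+ arrays lay above all 5 other arrays. PFKFB2 was 2.53-fold, 2.84-fold and 3.40-fold higher in p53+/+ than in p53−/− cells at 12, 24 and 48 h, a mean log2 difference of 1.54 (SE 0.28, limma adjusted p = 0.0144). Its change from the array labelled p53+/+ 0 h was 1.02, 1.50 and 1.92, and its mean change against the p53−/− 0 h array was 1.96. In p53−/− cells PFKFB2 also rose, by 0.16, 0.47 and 0.63 from 0 h. The difference between the mean changes of the genotypes was 1.06 (SE 0.56), which did not pass the interaction test given below. That difference was 0.25 without scaling and 0.31 with the mean of all probes. A second PFKFB2 probe, well above background on 5 arrays, gave a treated difference of 1.21 but a mean change of 1.28 in p53+/+ and 1.72 in p53−/− cells, so the probes disagreed on the p53−/− change. The second probe did not pass the test (limma adjusted p = 0.0989). The call of the brighter PFKFB2 probe held in 11 of 12 refits and was lost without the 24 h arrays (adjusted p = 0.177). Its mean difference was 0.94 without scaling, and spike-in scaling put it at 0.83 at 12 h and 0.82 at 24 h.

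PFKFB3 and PFKFB4 did not pass the test. PFKFB3, the isoform with the strongest kinase activity, had a treated difference of 0.63 (SE 0.19, limma adjusted p = 0.0668), and its second probe gave 0.63 as well. PFKFB3 passed when only probes above background on all arrays were fitted (adjusted p = 0.0354) and with no filter on dim probes (0.0414). PFKFB4 had levels of 0.54, −0.21, 1.18 and −0.26 in p53+/+ (0, 12, 24 and 48 h) and 0.39, 0.92, 1.41 and 1.18 in p53−/−. Its treated difference was −1.13, −0.23 and −1.44 at 12, 24 and 48 h. The p53+/+ 24 h array lay near the p53−/− arrays, and the mean of −0.93 (SE 0.41) had an adjusted p of 0.167 by limma.

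**Figure D3:**
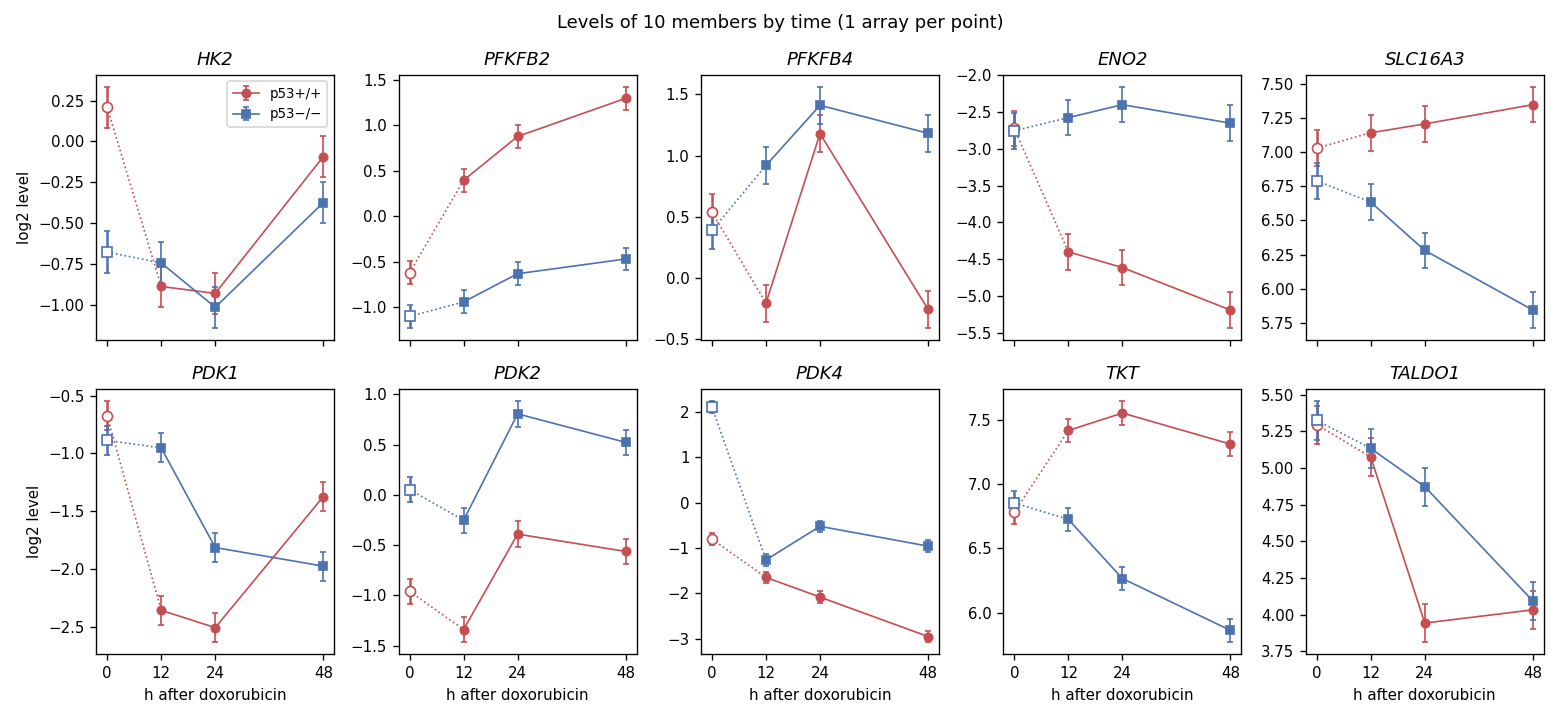
Log2 level (vertical axis, own scale per panel) against hours after doxorubicin for the 9 members chosen by size and for SLC16A3, with p53+/+ as red circles and p53−/− as blue squares. Each point is 1 array, error bars are ±2 technical SDs of repeated spots, and open symbols and dotted lines mark 0 h. In treated cells PFKFB2, SLC16A3 and TKT lie higher in p53+/+ than in p53−/− cells, and ENO2 lies lower. For SLC16A3 and TKT the p53−/− levels also fell from 0 h at each time.

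Enzymes of the lower steps had small treated differences, except ENO2. GAPDH, PGK1, PGAM1, ENO1 and PKM had treated differences between −0.26 and 0.13, and none passed the test. GAPDH, the glyceraldehyde phosphate dehydrogenase often used as a reference gene, differed by 0.30, 0.02 and 0.02 at 12, 24 and 48 h. The sign of its mean difference turned after quantile normalization (−0.27), median scaling (−0.02) and without scaling (−0.48). In all, 12 of the 31 members changed sign under a scaling or background correction, PKM and PGK1 among them, and the 4 called members did not.

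ENO2, the neuronal enolase, was the called member of this group. Its levels were −2.72, −4.40, −4.61 and −5.19 in p53+/+ (0, 12, 24 and 48 h) and −2.75, −2.58, −2.40 and −2.65 in p53−/−. The 3 treated p53+/+ arrays were the lowest, were not well above background, and did not overlap the other 5. Each dim array was then set at the lowest signal of any probe well above background, or at its own ENO2 signal if higher. With that floor, mean ENO2 was 3.91-fold lower in treated p53+/+ than in treated p53−/− cells. The floor comes from other probes, so this fold is a rough size and not a strict minimum. The measured means were −4.73 and −2.54, and limma gave an adjusted p of 0.00309 on the measured signals. ENO2 entered that fit only through the arrays where it is high, and it was not tested when only probes above background on all arrays were fitted. Against the array labelled p53+/+ 0 h ENO2 was 3.45-fold lower with the same floor. The p53−/− 0 h level was nearly the same as on that array (difference 0.03). In p53−/− cells ENO2 differed from 0 h by 0.18, 0.35 and 0.10. ENO1, the ubiquitous enolase that catalyses the same step, had levels of 6.52, 6.42, 5.77 and 5.96 in p53+/+ (0, 12, 24 and 48 h) and 6.38, 6.39, 5.95 and 5.88 in p53−/−, and its treated difference was −0.02 (SE 0.25). Without the 24 h arrays the adjusted p of ENO2 was 0.0886, and normexp background correction moved the difference of the measured means from −2.19 to −0.87.

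Among the genes of lactate, the transporter SLC16A3 alone passed the test. LDHA and LDHB, the lactate dehydrogenase subunits, had treated differences of −0.10 and −0.02, with the p53+/+ and p53−/− arrays overlapping. SLC16A1, the transporter MCT1, had a treated difference of 0.49 (SE 0.31, limma adjusted p = 0.309), most of it at 48 h. SLC16A3, the transporter MCT4 that exports lactate, had levels of 7.03, 7.14, 7.21 and 7.35 in p53+/+ (0, 12, 24 and 48 h) and 6.79, 6.63, 6.28 and 5.84 in p53−/−. All 4 p53+/+ arrays were above all 4 p53−/− arrays, and the gap was 1.42-fold, 1.90-fold and 2.84-fold at 12, 24 and 48 h. The mean log2 difference was 0.98 (SE 0.24, limma adjusted p = 0.0373). In p53−/− cells SLC16A3 differed from 0 h by −0.16, −0.51 and −0.95, while in p53+/+ cells it differed by 0.11, 0.18 and 0.32 from the array labelled p53+/+ 0 h, with a mean of 0.44 against the p53−/− 0 h array. SLC16A3 is named because it was called, after its values were seen. The call was lost without the p53+/+ 48 h array (adjusted p = 0.0835), without the 12, 24 or 48 h arrays (0.0641, 0.25 and 0.13), with time as a block (0.0692) and after median scaling (0.0872), quantile normalization (0.101) or no scaling (0.218), and spike-in scaling put the gap at 0.00 at 12 h and 0.24 at 24 h.

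Pyruvate entry into mitochondria is governed by the PDKs, and no member of this group passed the test. PDHA1 and PDHB, subunits of pyruvate dehydrogenase itself, had treated differences of −0.21 and 0.31. PDK1, a HIF-1 target in many cells, had levels of −0.67, −2.35, −2.50 and −1.37 in p53+/+ (0, 12, 24 and 48 h) and −0.89, −0.95, −1.81 and −1.97 in p53−/−. In p53+/+ cells it differed from the array labelled p53+/+ 0 h by −1.68, −1.83 and −0.70, and in p53−/− cells by −0.06, −0.93 and −1.09 from 0 h, and the mean p53+/+ change was −1.19 against the p53−/− 0 h array. The genotypes crossed between 24 and 48 h, and the treated difference of −0.50 (SE 0.40) had an adjusted p of 0.433 by limma.

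PDK2 and PDK4 differed between the genotypes at 0 h. These were the only members at least 2-fold apart between the 0 h arrays, both lower on the array labelled p53+/+ 0 h. Over all genes, 4.25% were at least 2-fold higher and 5.38% at least 2-fold lower there. PDK2 had levels of −0.96, −1.34, −0.39 and −0.56 in p53+/+ (0, 12, 24 and 48 h) and 0.05, −0.25, 0.81 and 0.52 in p53−/−. All 4 p53+/+ arrays lay below all 4 p53−/− arrays, and the gap was nearly constant (−1.01 at 0 h, then −1.09, −1.20 and −1.09), with a treated mean of −1.12 (SE 0.37, limma adjusted p = 0.0834) that passed in 4 of 12 alternatives. With time as a block, which sets the genotypes against each other within each time, PDK2 was called (SE 0.17, adjusted p = 0.0237). PDK4, the starvation-induced isoform, had levels of −0.81, −1.65, −2.09 and −2.95 in p53+/+ (0, 12, 24 and 48 h) and 2.11, −1.27, −0.52 and −0.96 in p53−/−. The p53−/− 0 h array was by far the highest, and treated p53−/− cells differed from it by −3.38, −2.63 and −3.07. Treated p53+/+ cells differed from their labelled 0 h array by −0.84, −1.28 and −2.15. The treated difference was −1.31 (SE 0.38, limma adjusted p = 0.0569), and it passed the threshold in 7 of 12 alternatives, among them median scaling (0.0394) and quantile normalization (0.0474). PDK3, the remaining kinase, had a treated difference of −0.04.

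Within the pentose phosphate pathway, TKT and TALDO1, whose enzymes share the non-oxidative branch, had different courses over time, a difference that was not tested. TKT, transketolase, had levels of 6.78, 7.42, 7.56 and 7.31 in p53+/+ (0, 12, 24 and 48 h) and 6.86, 6.73, 6.27 and 5.86 in p53−/−. The 3 treated p53+/+ arrays were the highest of all 8, and the 24 and 48 h p53−/− arrays were the lowest. TKT was 1.62-fold, 2.45-fold and 2.74-fold higher in treated p53+/+ cells at 12, 24 and 48 h, a mean log2 difference of 1.15 (SE 0.26, limma adjusted p = 0.0273). It differed by 0.64, 0.77 and 0.53 from the array labelled p53+/+ 0 h in p53+/+ cells and by −0.13, −0.59 and −0.995 from 0 h in p53−/− cells, and the 0 h arrays were close (−0.07), so that its mean p53+/+ change was 0.58 against the p53−/− 0 h array. The TKT call was lost without the p53+/+ 48 h array (adjusted p = 0.0507), without the 12, 24 or 48 h arrays (0.0514, 0.242 and 0.0848) and after median scaling (0.0613), quantile normalization (0.0667) or no scaling (0.153). Its mean difference was 0.55 without scaling, and spike-in scaling put the gap at 0.18 at 12 h and 0.60 at 24 h.

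TALDO1, transaldolase, had levels of 5.30, 5.07, 3.94 and 4.03 in p53+/+ (0, 12, 24 and 48 h) and 5.32, 5.13, 4.87 and 4.09 in p53−/−. At 48 h it differed from 0 h by −1.26 in p53+/+ and −1.23 in p53−/− cells, and the genotypes were apart at 24 h only (−0.93). The treated mean was −0.35 (SE 0.40, limma adjusted p = 0.594). PGD, the phosphogluconate dehydrogenase of the oxidative branch, had a treated difference of −0.23 (SE 0.29) and was lowest on the p53+/+ 48 h array.

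Whether the change after ADR itself differed between genotypes was tested as an interaction over all 8 arrays, in which the array labelled p53+/+ 0 h takes part. No member passed by limma, while 1.69% of all probes passed. With 1 untreated array per genotype the interaction test has little power, so a member that did not pass may still differ. At an unadjusted limma p under 0.05 there was 1 member (ENO2) of 31, beside 4949 of 28947 probes. The adjusted p of ENO2 was 0.0877, on signals that were not well above background on the 3 treated p53+/+ arrays, so its size is uncertain. TKT had 1.22 (SE 0.51, adjusted p = 0.296). By sign alone, 6 members moved one way at all 3 times in p53+/+ cells and the other way at all 3 times in p53−/− cells, a pattern that 22.4% of all genes showed. PDK4, whose 0 h arrays differed by −2.92, had an interaction of 1.60 (SE 0.75, adjusted p = 0.341).

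**Figure D4:**
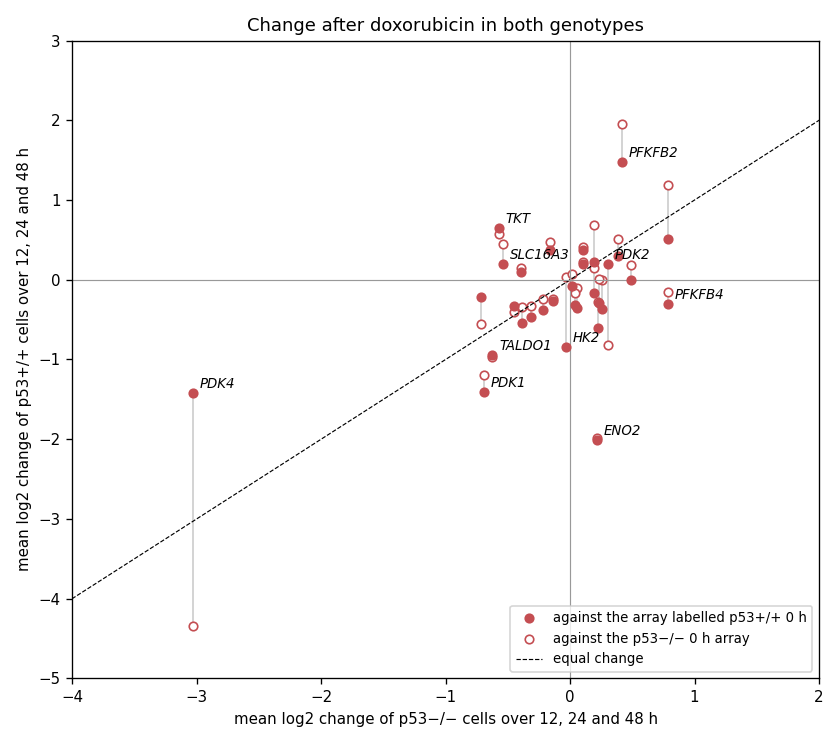
Mean log2 change over 12, 24 and 48 h in p53−/− cells (horizontal) and p53+/+ cells (vertical) for the 31 measured members, with the p53+/+ change taken from the array labelled p53+/+ 0 h (filled) or from the p53−/− 0 h array (open), joined by a line for each gene. The choice moved PDK4, PDK2 and HK2 most (for PDK4 from −1.42 to −4.34), while ENO2, TKT and TALDO1 barely moved.

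The neighbouring genes of the same pathways are given for context. Among 43 other genes of glycolysis, pyruvate use and the pentose phosphate pathway, 37 were measured, 3 were called higher and 4 lower in treated p53+/+ cells, or 18.9% against 20.9% of all genes. TIGAR, which opposes the PFKFB kinases, had levels of −2.02, 2.06, 2.46 and 2.16 in p53+/+ (0, 12, 24 and 48 h) and −3.26, −2.42, −2.56 and −2.62 in p53−/−, and its treated difference of 4.76 (SE 0.19, limma adjusted p = 0.000115) was far above that of any member. PGM2, which interconverts sugar phosphates, was higher by 1.88 (SE 0.19, limma adjusted p = 0.00212), and PRPS1, which uses ribose phosphate for nucleotide synthesis, was lower with −1.03 (SE 0.20, limma adjusted p = 0.0177). PGAM5, a mitochondrial phosphatase, had −1.26 (SE 0.35) and an adjusted p of 0.0526 by limma.

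Of 20 HIF-1 targets outside glycolysis, all measured, 7 were called higher and 1 lower in treated p53+/+ cells, or 40.0% against 20.9% of all genes. CA12, a carbonic anhydrase, had a treated difference of 2.81 (SE 0.39), MXI1, a MYC antagonist, had 1.70 (SE 0.36), and KDM4B, a histone demethylase, had 1.66 (SE 0.39), all called by limma. LOX, the collagen crosslinker, was the 1 called lower, with −2.50 (SE 0.24). Of 12 regulators, 2 were called higher and 1 lower, or 25.0% against the same 20.9%. The 1 called lower is not among the regulators named here. EPAS1, the HIF-2 alpha subunit, had 1.55 (SE 0.29, limma adjusted p = 0.0154) and ESRRA, an orphan nuclear receptor of mitochondrial genes, had 1.10 (SE 0.24, limma adjusted p = 0.0237). HIF1A had 0.29 (SE 0.33), MYC 0.05 (SE 0.49), TXNIP, a brake on glucose uptake, −0.79 (SE 0.41), and its relative ARRDC4 −0.42 (SE 0.36), none of which passed. The list of 21 tricarboxylic acid cycle genes also holds enzymes beside the cycle, such as ME1. In that list 2 genes were called, or 9.52% against 20.9% of all genes. SDHA (1.02, SE 0.19) was called higher and IDH2 (−1.58, SE 0.43) lower, while FH had −0.77 (SE 0.35) and ME1 0.68 (SE 0.58).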

How the data were processed

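Total RNA of 8 MCF10A cultures was hybridised by the authors to 1-colour Agilent arrays on 1 slide, and the deposited scanner files hold fluorescence intensity from Agilent Feature Extraction 10.7.3.1, already background-subtracted. The deposited series table repeats the same processed signals (503808 of 503808 values equal within a relative 1e-06). Microarrays have no read depth, and 1 array per condition limits the precision. Between 55.0% and 67.6% of spots were well above background. The p53+/+ 48 h array had no spike-in signal, unlike the other 7 arrays. Spots flagged as outliers were dropped, log2 of the processed signal minus the array's 75th percentile was taken, spots of a probe were averaged and a gene was read from its probe with the highest mean. limma 3.58.1 in R 4.3.3 fitted treated p53+/+ against treated p53−/− (3 arrays each, the 3 times standing in for replicates, so that spread over time enters the error) and the interaction (8 arrays) on the 28947 probes that 1 or more arrays read well above background. Calls are adjusted p under 0.05. These p-values measure the spread between arrays of different times, not between cultures. Levels are given for members at least 2-fold from 0 h, or between treated genotypes, at 2 or more of 3 times, and from each other list up to 4 genes with the largest treated difference among those well above background on all 8 arrays, plus HIF1A, MYC, TXNIP and TIGAR. Other members are given by values beside their role, outside this rule. The members and lists were chosen with earlier results of these data known. Alternatives were quantile, median, spike-in or no scaling, normexp background correction (offset 50), other probe filters, the mean of all probes, time as a block, leaving out each time and, added after seeing the data, leaving out the p53+/+ 48 h array. One gene used to check the labels is not reported here. Promoters came from RefSeq (GRCh38.p14).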

Additional observations from a re-analysis of the deposited data

Results flagged for a closer look

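Among the members, 6 moved one way at all 3 times in p53+/+ cells and the other way at all 3 times in p53−/− cells, as did 22.4% of all genes. The difference between the mean log2 changes of the genotypes (p53+/+ minus p53−/−) was 1.22 for TKT, 0.74 for SLC16A3, −2.22 for ENO2 as measured, −0.83 for TPI1, −0.63 for PGAM1 and −0.35 for PDHA1. ENO2 was not well above background on the treated p53+/+ arrays. With these arrays set at the floor described for ENO2 above, its difference between changes was 3.996-fold, which is not a strict minimum. The interaction test missed the threshold for each, with limma adjusted p-values of 0.296, 0.492, 0.0877, 0.426, 0.518 and 0.746 in the same order. Against the p53−/− 0 h array the signs held for TKT, SLC16A3 and ENO2 and did not hold for the other 3. The pattern was lost for SLC16A3 after quantile normalization, for SLC16A3, TPI1, PGAM1 and PDHA1 after median scaling, and for SLC16A3 and TKT without scaling. Each of the 6 had at least 1 move within 2 technical SDs of 0, and PDHA1 had 5 of its 6 moves there.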

How the results depend on the processing

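Scaling to the 75th percentile left the medians of all genes between −0.03 and 0.10 in the 3 treated differences, whereas no scaling put them at −0.37, −0.52 and −0.76 at 12, 24 and 48 h, since the 75th percentile was lower on treated p53+/+ arrays. The cause of the other moves was not tested. PFKFB2 kept its call in 11 of 12 alternatives, ENO2 in 10 of 11, TKT in 5 and SLC16A3 in 4 of 12. The ENO2 count is no sign of robustness. Its refits reuse signals not well above background on the treated p53+/+ arrays, and the filter for all arrays dropped it.

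Members called higher in treated p53+/+ cells, 3 in the reported fit, numbered 4 (PFKFB3 gained) when only probes above background on all arrays were fitted or with no filter, 2 with time as a block (SLC16A3 lost), and 1 after quantile normalization, median scaling or no scaling or without the p53+/+ 48 h array alone. Members called lower, 1 in the reported fit, numbered 2 after quantile normalization or median scaling, 7 without scaling (PFKFB4, TPI1, PGAM1, ENO2, PDK2, PDK4 and PDHA1), 3 after normexp correction, and 2 with the mean of all probes, with the filter for all arrays, with no filter and with time as a block. Leaving out the 12, 24 or 48 h arrays gave 0 to 1 called higher and 0 to 1 called lower. In the interaction fit 1 member (ENO2) was called lower without scaling and none otherwise.

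The number of probes called over the whole array, 5201, was 9393 without scaling, 9894 after normexp correction (73.3% higher), 12536 with no filter (78.4% higher), and 292 to 2670 with 1 time left out. For the interaction, 488 became 1296 without scaling, 1251 after normexp correction, 60 with time as a block, and 0 to 42 with 1 time left out. At an unadjusted p under 0.05 the fits without 24 h and without 48 h held 3063 and 5274 probes.

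The median treated difference of members, −0.02, was −0.27 after quantile normalization, −0.16 after median scaling and −0.62 without scaling. Spike-in scaling, possible at 12 and 24 h only, moved it from 0.03 to −0.48 and from −0.15 to −0.84. Without scaling, the median changes were −0.68 in p53+/+ and 0.43 in p53−/− cells and the median 0 h difference was 0.36.

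By size without scaling, 8 members were down in p53+/+ cells, 2 were up in p53−/− cells, and 0 were higher and 7 lower between treated genotypes. After normexp correction 2 were down in p53+/+ cells. With the 3-fold rule 0 were up and 2 down in p53+/+ cells, and 0 were higher and 1 lower between treated genotypes. With the p53−/− 0 h array as baseline 2 were up (PFKFB2 and SLC2A1) and the median was −0.0055. With the mean of all probes 1 was up in p53−/− cells and 1 was higher at 0 h. Lower at 0 h was 1 member after median scaling, no scaling, normexp correction or the 3-fold rule, and 1 was higher at 0 h without scaling.

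Some signs that no call rested on also turned. The HK2 treated difference was −0.033 after quantile normalization, −0.060 after median scaling, −0.52 without scaling, −0.20 without the p53+/+ 48 h array and −0.030 to 0.18 over the fits that left out 1 time. The HK2 interaction was 0.030 with the mean of all probes, and the SLC16A3 interaction was −0.064 without scaling. The labels give no replicate numbers, so the arrays were paired by time alone. With time as a block PDK2 was gained (adjusted p = 0.0237) and SLC16A3 lost (0.0692), and the calls of PFKFB2, TKT and ENO2 were kept.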
